A study of Mus musculus with 4 samples.

Results

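The genes described here are 3 that encode secreted signalling peptides, Edn3 (endothelin 3), Gal (galanin) and Nppc (C-type natriuretic peptide), and 5 that encode receptors for them, Ednra, Ednrb, Galr2, Npr2 and Npr3. They are 8 of the 27040 genes listed in every library. They were chosen by their measured levels in these same libraries, the peptides for their level in muscle satellite cells by day and the receptors for the classes of cells that hold them, so the levels below are a description and carry no test. Single-cell RNA sequencing was done on mouse Achilles tendon in 4 libraries, 1 per group, and each library held cells pooled from 5 tendons. The groups were Vegfc CRE mice at day 7 after the injury, and Prox1 eGFP mice at day 0 with no treatment and at days 7 and 21 after the injury. The labels call the injury B/T and do not expand it, give no age, strain background or promoter details, and do not say what CRE acted on. The protocol describes a sort for Prox1-expressing cells for every library, but the cell type field reads unsorted for all of them. A Prox1 transcript was detected in 1.15% of Vegfc CRE cells, and in 8.85%, 96.8% and 86.7% of Prox1 eGFP cells at days 0, 7 and 21, so a sort can set the shares of cells in the later Prox1 eGFP libraries.

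Endothelins are short peptides that act on the G protein-coupled receptors EDNRA and EDNRB. EDNRA on vascular smooth muscle mediates constriction, EDNRB on endothelium mediates release of nitric oxide and clears the peptide, and endothelin 3 with EDNRB is needed for neural crest cells to reach the skin and gut. Galanin is a neuropeptide that is also induced in injured neurons, and it acts on G protein-coupled receptors that include GALR2. C-type natriuretic peptide acts on NPR2, a receptor whose inner domain makes cyclic GMP and which drives growth of cartilage, while NPR3 binds the peptide and removes it.

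The stretches of coding sequence that give the mature peptides are shown because they define which 3 signals the counted transcripts carry. The bases are from GENCODE M21 transcripts of mouse, read 5′ to 3′. Capitals mark the cysteine codons that form the rings of endothelin 3 and C-type natriuretic peptide, and, in Gal, the codons after the mature peptide at which the precursor is cut and amidated. The mature peptides took up 21 of 214 codons of the Edn3 precursor, 29 of 141 codons of the Gal precursor and 22 of 126 codons of the Nppc precursor.
Edn3, chromosome 2, plus strand: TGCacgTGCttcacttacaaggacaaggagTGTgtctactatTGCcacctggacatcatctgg
Gal, chromosome 19, minus strand: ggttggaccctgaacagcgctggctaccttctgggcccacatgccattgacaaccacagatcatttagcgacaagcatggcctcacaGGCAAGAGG
Nppc, chromosome 1, minus strand: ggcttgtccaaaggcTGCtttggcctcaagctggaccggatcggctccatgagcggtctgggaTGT

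The 250 bases before the annotated start of each peptide gene are shown because the 3 genes were detected in the same class of cells. The sequences are from RefSeq (GRCm38.p6), in which all 8 genes had an entry, and capitals mark matches on either strand to CANNTG, the E-box bound by basic helix-loop-helix factors such as those of muscle, or to TATAAA.
Edn3, chr2:174760369-174760618, plus strand: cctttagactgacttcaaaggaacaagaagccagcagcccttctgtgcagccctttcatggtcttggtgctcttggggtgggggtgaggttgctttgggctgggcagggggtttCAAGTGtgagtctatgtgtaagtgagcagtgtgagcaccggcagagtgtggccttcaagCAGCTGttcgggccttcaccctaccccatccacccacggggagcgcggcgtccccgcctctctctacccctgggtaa
Gal, chr19:3414545-3414794, minus strand: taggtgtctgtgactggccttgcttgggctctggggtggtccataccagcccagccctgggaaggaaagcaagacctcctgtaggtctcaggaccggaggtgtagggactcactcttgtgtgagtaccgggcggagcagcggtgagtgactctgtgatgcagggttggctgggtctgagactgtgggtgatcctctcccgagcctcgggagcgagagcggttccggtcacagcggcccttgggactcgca
Nppc, chr1:86670574-86670823, minus strand: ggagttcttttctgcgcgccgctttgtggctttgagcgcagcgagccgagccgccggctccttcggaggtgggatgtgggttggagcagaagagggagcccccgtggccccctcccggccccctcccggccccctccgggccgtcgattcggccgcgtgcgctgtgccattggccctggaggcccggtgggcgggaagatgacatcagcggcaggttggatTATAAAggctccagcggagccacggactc

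The Edn3 window held 2 matches to CANNTG, at 136 and 77 bases before the start, and the nearer match was CAGCTG, which is a case of CANNTG and was counted under both. The Gal and Nppc windows held no match to CANNTG. Of 32851 mouse promoter windows of the same length, 66.2% held CANNTG and 13.0% held CAGCTG. The Nppc window held a match to TATAAA at 29 bases before the start, which 12.4% of the windows held. None of the 3 windows held TGACGTCA, the cyclic AMP response element, which 1.55% of the windows held. The GC content was 59.2% for Edn3, 62.4% for Gal and 69.2% for Nppc, against a median of 52.4% over all windows.

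The libraries held between 6761289 and 92568978 unique molecular identifiers (UMIs, each standing for 1 captured transcript), and 18828 of 21183 barcodes were kept as cells. Levels are the summed UMIs of a gene per 1000000 UMIs of the same cells (CPM), with exact Poisson intervals at 95%, and for a count of 0 the limit is the level that 3 counts would give. Shares of cells carry exact Clopper-Pearson intervals where given. These intervals cover counting error within a library only, since no group had a second library. They take each UMI as an independent draw, so they do not cover the uneven spread of UMIs over cells. Pairs of libraries shared between 2 and 14 cell barcodes. Cells were clustered without the 8 genes and without the genes of their pathways, and clusters were named from lists of marker genes. Satellite-like cells, named from Pax7, Myf5, Myod1, Chodl, Calcr, Cdh15, Heyl and Des, numbered 36 in Vegfc CRE day 7, and 2, 3660 and 3499 in Prox1 eGFP days 0, 7 and 21. Satellite cells are the stem cells of skeletal muscle, and Pax7, the factor that marks them, was detected in 81.6% of the satellite-like cells at day 21 and in 93.9% at day 7. The leukocyte marker Ptprc was detected in 0.0572% of the same cells at day 21 and in 0.0273% at day 7. Leukocyte classes were small in these libraries, so this share says little about other classes. The 7 lymphatic endothelial markers other than Prox1 were all detected in satellite-like cells. They summed to 209 CPM at day 21 and 230 CPM at day 7, of which the highest single marker gave 156 and 194 CPM.

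In the Prox1 eGFP libraries of days 21 and 7 the 3 peptide genes were read mostly from satellite-like cells. At day 21 these cells held 96.5% of the Edn3 UMIs, 96.6% of the Gal UMIs and 97.3% of the Nppc UMIs of the library, while they held 44.6% of all its UMIs. At day 7 they held 98.0%, 97.0% and 98.0% of the UMIs of the same 3 genes and 54.0% of all UMIs. The heat map of levels by class shows this as a block in the satellite-like rows.

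**Figure D1:**
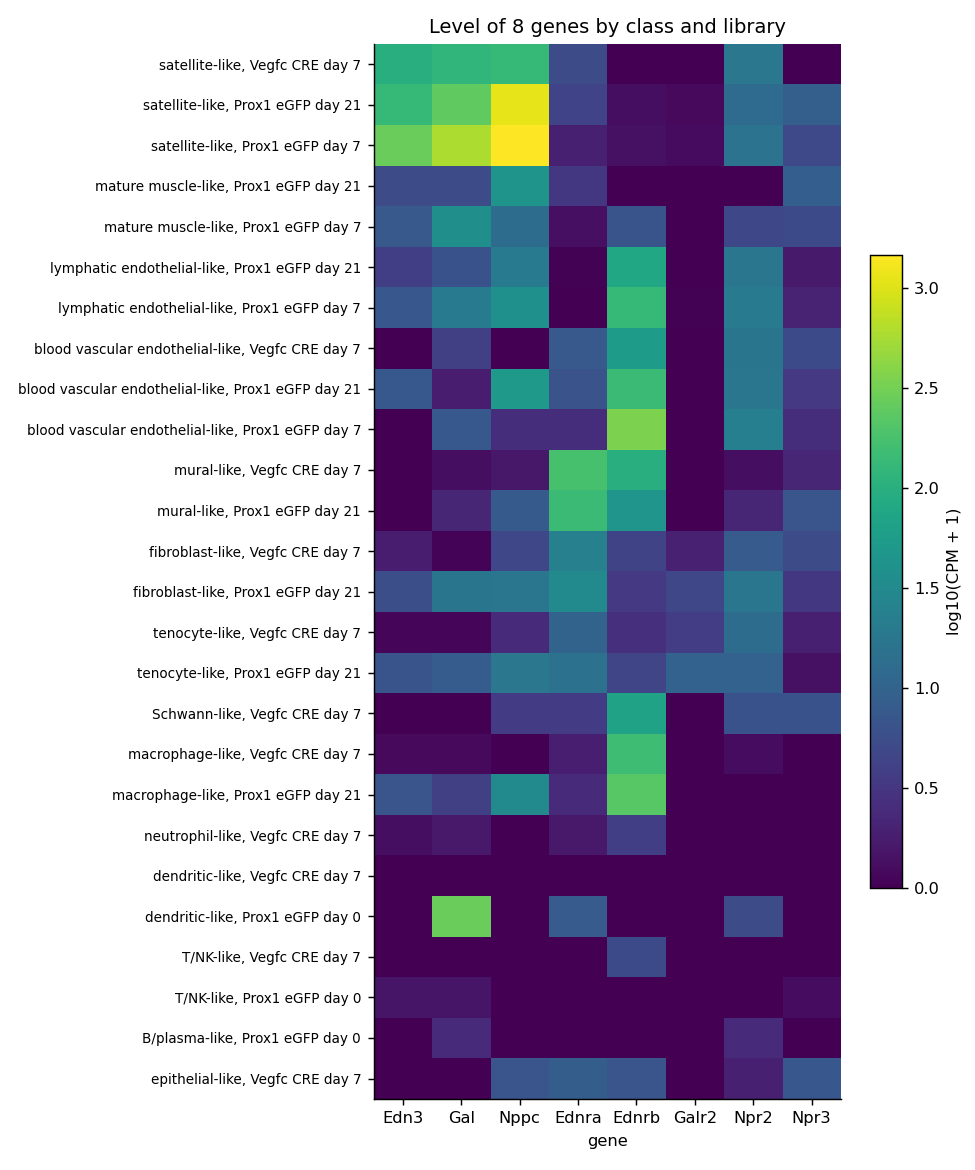
Level of each of the 8 genes (columns) in each named class of at least 30 cells of each library (rows), coloured by log10(CPM + 1). The peptide genes Edn3, Gal and Nppc stand out in satellite-like cells, Ednra in mural-like cells, and Ednrb in endothelial-like, macrophage-like, mural-like and Schwann-like cells, and the dendritic-like cells of day 0 stand out for Gal.

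Edn3 (ENSMUSG00000027524, mm10 chr2:174760619-174784042, plus strand) had a level of 132 CPM in satellite-like cells at day 21 (127 to 136, 3393 UMIs in 3499 cells), against 277 CPM at day 7 (271 to 283, 8804 UMIs in 3660 cells). The day 21 level was 0.476 of the day 7 level (0.457 to 0.495). A UMI of Edn3 was found in 50.4% of the cells at day 21 and in 79.5% at day 7, where the median depths were 6677 and 7745 UMIs a cell. After each cell was thinned to 2000 UMIs, which left out 54 and 32 shallower cells, the shares were 22.9% and 40.9%. In lymphatic endothelial-like cells, the largest other class, the share was 1.68% at day 21 and 6.37% at day 7 without thinning, at median depths of 8833 and 19012 UMIs. Edn3 was therefore lower at day 21 both in level and in share of cells.

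Gal (ENSMUSG00000024907, mm10 chr19:3409915-3414544, minus strand) had a level of 246 CPM in satellite-like cells at day 21 (240 to 252, 6330 UMIs), against 595 CPM at day 7 (587 to 604, 18914 UMIs). The ratio was 0.413 (0.402 to 0.425). The share of cells with a UMI was 30.5% at day 21 and 58.1% at day 7, and after thinning 17.1% and 39.0%. In lymphatic endothelial-like cells the unthinned shares were 1.47% and 8.93%.

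Nppc (ENSMUSG00000026241, mm10 chr1:86666291-86670571, minus strand) had a level of 1127 CPM in satellite-like cells at day 21 (1114 to 1140, 29015 UMIs), against 1459 CPM at day 7 (1446 to 1473, 46389 UMIs). The ratio was 0.772 (0.761 to 0.784). A UMI was found in 65.3% of the cells at day 21 and in 72.7% at day 7, and after thinning in 49.9% and 56.9%. In lymphatic endothelial-like cells the unthinned shares were 3.69% and 10.4%. The difference between the days was smaller for Nppc than for Edn3 and Gal in these libraries. The intervals take each UMI as an independent draw, while UMIs were unevenly spread over cells, so they do not test this order.

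All 8 genes had at least 10 UMIs over both days in satellite-like cells, and 2 of them, Edn3 and Gal, were at least 2-fold lower at day 21, where 11.4% of 14097 genes with at least 10 UMIs were. Ednra and Npr3 were at least 2-fold higher, where 4.48% of genes were, and Nppc, Ednrb, Galr2 and Npr2 were within 2-fold. Because the genes were chosen on this contrast, these counts are not read against the background. The median gene had a log2 ratio of -0.23 on this scale, against -1.07 for Edn3, -1.27 for Gal and -0.37 for Nppc. Scaling the summed libraries by TMM, which centres on the bulk of genes, moved the log2 ratios to -0.86 for Edn3, which was then within 2-fold, -1.06 for Gal and -0.16 for Nppc. That scaling changed the number of genes past 2-fold to 1106 lower and 815 higher, against 1604 lower and 631 higher without it. Most of the marker list of the class was also lower at day 21, with Pax7 at 352 against 641 CPM, Cdh15, a cadherin of satellite cells, at 135 against 244 CPM, Myf5, a muscle determination factor, at 447 against 539 CPM, and Chodl, Calcr and Des lower too. The exceptions were Myod1, a factor of activated satellite cells, at 147 against 127 CPM, and Heyl, a Notch target, at 178 against 173 CPM. Their part in the peptide ratios was not tested.

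The satellite-like class was made of several clusters, and the days drew on them in different numbers. Cluster 0, led by P2ry14 and Chrdl2, held 2886 cells at day 21 and 944 at day 7, while cluster 1, led by Gal itself, Pde1c and Fosb, held 325 and 2411. Gal, Nppc and Edn3 were among the 10 leading genes of cluster 1 and were not used to form it. Leading genes were ranked against all other cells, most of them outside this class. The peptides were chosen for their level in satellite cells, so their place among the leading genes is a description only. Cluster 14, led by Myog and Mymk, genes of differentiating and fusing muscle cells, held 148 and 208 cells.

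Within cluster 0 all 3 peptides were lower at day 21. Edn3 was at 137 CPM at day 21 and 271 CPM at day 7, a ratio of 0.507 (0.477 to 0.538). Gal was at 220 and 458 CPM, a ratio of 0.480 (0.459 to 0.503). Nppc was at 1161 and 1281 CPM, a ratio of 0.907 (0.885 to 0.929), above the median gene of this cluster, whose log2 ratio was -0.19 against -0.14 for Nppc. Of the 3 peptides only Gal was at least 2-fold lower in cluster 0, where 7.35% of 12674 genes were.

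Within cluster 1 the peptides did not move together. Edn3 was at 198 CPM at day 21 and 310 CPM at day 7, a ratio of 0.639 (0.580 to 0.702). Gal was at 659 and 749 CPM, a ratio of 0.879 (0.834 to 0.927). Nppc was higher at day 21, at 2180 against 1799 CPM, a ratio of 1.21 (1.18 to 1.25). None of the 3 was at least 2-fold lower, where 10.8% of 12687 genes were. Without the cells of cluster 1 the log2 ratio of Nppc over the class turned to 0.22, and those of Edn3 and Gal were -0.81 and -0.70.

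In the Myog-led cluster 14 levels were lower than in clusters 0 and 1, and the days differed again. Edn3 was at 44.7 CPM at day 21 and 130 CPM at day 7, a ratio of 0.343 (0.271 to 0.430). Gal was at 163 and 81.6 CPM, a ratio of 2.001 (1.71 to 2.34), although its share of cells was 20.9% at day 21 and 38.5% at day 7. Nppc was at 207 and 118 CPM, a ratio of 1.75 (1.53 to 2.01), with shares of 23.6% and 32.7%. Since these shares and levels ran in opposite directions, no order of the days for Gal and Nppc in this cluster is read from either. Myog, the differentiation factor that leads this cluster, was at 3858 CPM at day 21 and 1600 CPM at day 7, and its part in these ratios was not tested.

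**Figure D2:**
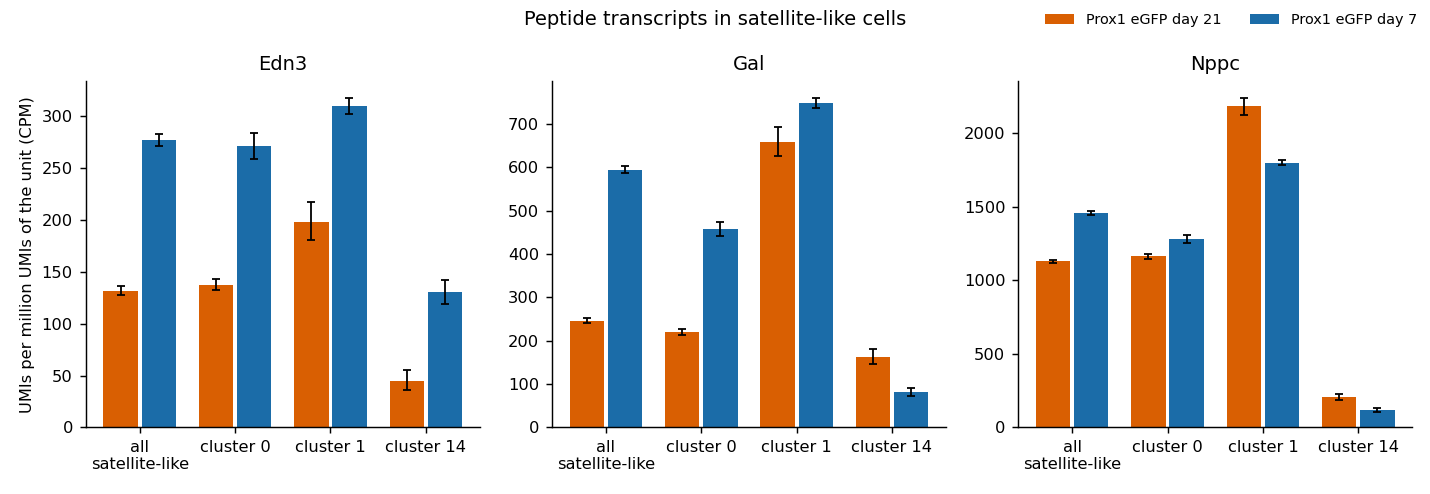
Level of Edn3, Gal and Nppc (CPM, from 0) in all satellite-like cells and in clusters 0, 1 and 14, with Prox1 eGFP day 21 in orange left of day 7 in blue, and bars of the exact Poisson 95% interval. Edn3 is lower at day 21 in each of these units, whereas Gal is higher at day 21 in cluster 14, and Nppc in clusters 1 and 14. In cluster 14 Gal and Nppc were each found in a smaller share of cells at day 21.

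The UMIs were unevenly spread over cells, most of all for Gal. The 10% of satellite-like cells with the most Gal UMIs held 80.3% of them at day 21 and 61.3% at day 7. For Nppc the same share of cells held 56.7% and 51.4%, and for Edn3 42.0% and 31.1%. The median cell had no Gal UMI at day 21 and 1.38 per 10000 UMIs at day 7, while the highest cell had 297 and 223 per 10000. For Nppc the median cell had 3.01 and 5.21 per 10000, and for Edn3 0.599 and 2.35. The plot by percentile of cells shows day 21 under day 7 for all 3 genes over most of the range.

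**Figure D3:**
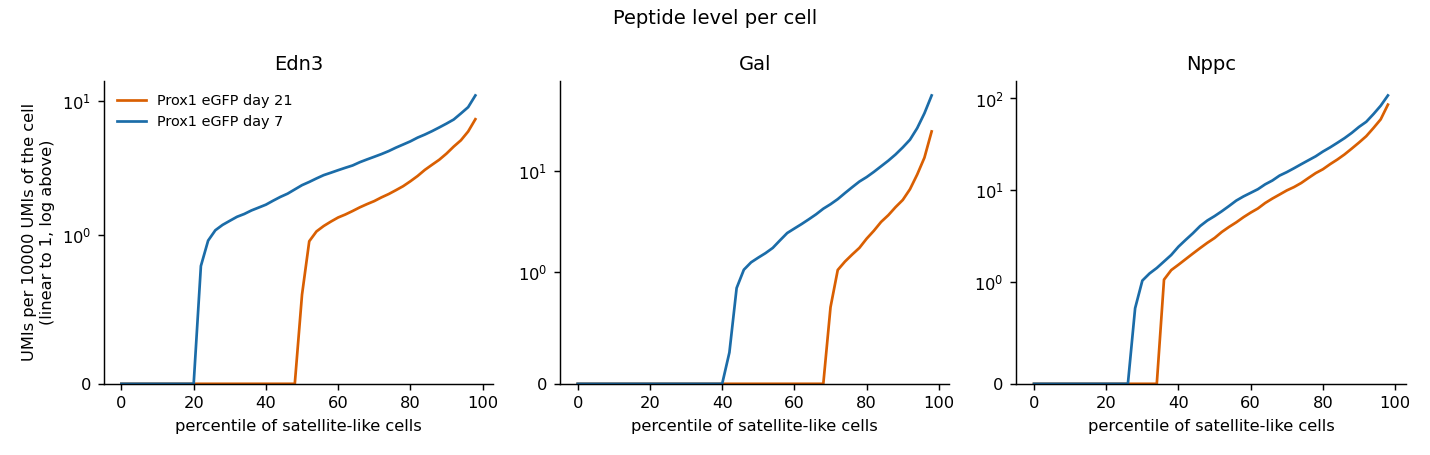
UMIs of each peptide gene per 10000 UMIs of the cell (y axis, linear to 1 and logarithmic above) by percentile of satellite-like cells (x axis), with Prox1 eGFP day 21 in orange and day 7 in blue. The curves leave 0 at a higher percentile at day 21 than at day 7, by most for Gal and Edn3 and by least for Nppc.

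The same cell often held UMIs of more than 1 peptide gene. All 3 were found in 15.8% of satellite-like cells at day 21 and in 40.0% at day 7, and none in 17.5% and 5.52%. After thinning, all 3 were found in 3.72% and 12.3%, and none in 36.7% and 21.1%. Cells with a Gal UMI held an Nppc UMI more often than cells without, in 68.8% against 46.0% of thinned cells at day 21 and in 69.9% against 48.6% at day 7. Gal was found in 21.8% of Edn3-positive against 15.7% of Edn3-negative thinned cells at day 21, and in 42.3% against 36.6% at day 7. Nppc was found in 59.3% of Edn3-positive against 47.1% of Edn3-negative thinned cells at day 21, and in 62.6% against 53.0% at day 7. The genes differ in level and so in how often a UMI is missed, so the pairs are not ranked. The share of cells with all 3 also depends on the share with each gene alone, which was lower at day 21. Clusters that differ in these levels and in cell numbers by day were pooled, so no joint change is read.

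**Figure D4:**
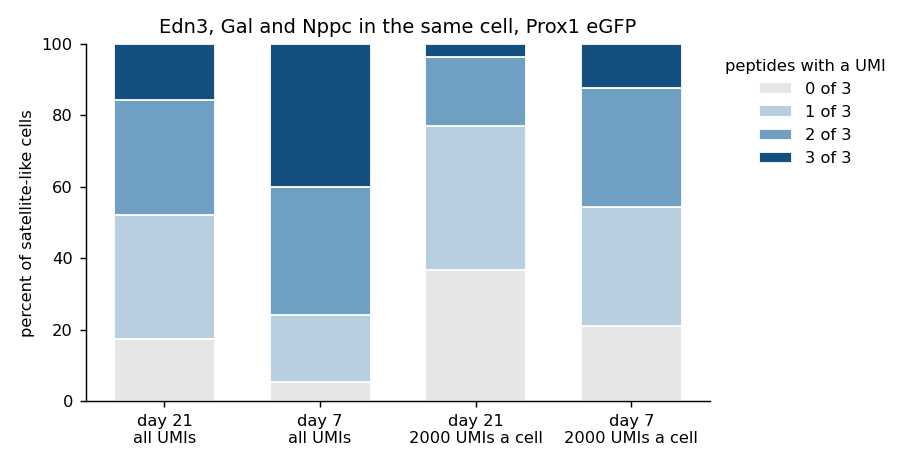
Percent of satellite-like cells of Prox1 eGFP (y axis) with UMIs of 0, 1, 2 or 3 of the genes Edn3, Gal and Nppc, at day 21 and day 7, from all UMIs and after thinning to 2000 UMIs a cell. The darkest segment, cells with all 3, is 15.8% at day 21 and 40.0% at day 7 from all UMIs, and 3.72% and 12.3% after thinning.

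The Vegfc CRE library held few satellite-like cells, and not all of its 36 were clear ones. Of the 6 in cluster 20, a cluster of dividing cells, 4 had no UMI of Pax7, Myf5, Myod1, Chodl or Calcr and 2 had UMIs of mast cell genes, so the comparison was made on clusters 0 and 1, whose 27 cells all had a satellite marker and no mast cell UMI. These cells were shallower, with a median of 4459 UMIs against 7610 in the 3355 cells of the same clusters in Prox1 eGFP day 7. Edn3 was at 145 CPM in Vegfc CRE (20 UMIs) and 300 CPM in Prox1 eGFP, a ratio of 0.483 (0.295 to 0.746). Gal was at 203 (28 UMIs) and 674 CPM, a ratio of 0.301 (0.1999 to 0.435). Nppc was at 225 (31 UMIs) and 1666 CPM, a ratio of 0.135 (0.0916 to 0.191). All 3 peptide genes were at least 2-fold lower in Vegfc CRE, where 14.6% of 2484 genes with a mean of at least 50 CPM were. Clusters 0 and 1 held 22 and 5 cells in Vegfc CRE, against 944 and 2411 in Prox1 eGFP day 7. In cluster 0, Edn3, Gal and Nppc were at 147, 101 and 202 CPM in Vegfc CRE, against 271, 458 and 1281 CPM. In cluster 1 they were at 136, 580 and 307 CPM, against 310, 749 and 1799 CPM. The Gal interval there was 338 to 928 CPM in Vegfc CRE. The part of the cluster mix in the ratios was not tested. After thinning, Nppc was found in 18.5% of Vegfc CRE cells and in 59.8% of Prox1 eGFP cells, Gal in 22.2% and 40.6%, and Edn3 in 25.9% and 42.2%. Prox1, for which the Prox1 eGFP cells were sorted per the protocol, was at 135 CPM in the Vegfc CRE satellite-like cells and at 1219 CPM in those of Prox1 eGFP day 7. The genotype and the Prox1 level of the cells collected cannot be told apart here. The 2 satellite-like cells of day 0, both in cluster 20, held no UMI of the 3 peptide genes. No day 0 cell had UMIs of at least 2 of Pax7, Myf5, Myod1, Chodl and Calcr and none of Cdh5, Pecam1 and Ptprc. It is thus not clear that these were satellite cells, and no level before injury was measured.

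Outside satellite-like cells the peptide genes were low in the injured Prox1 eGFP libraries. Lymphatic endothelial-like cells held Edn3 at 2.13% of the satellite-like level at day 21 and 2.25% at day 7, Gal at 2.11% and 3.19%, and Nppc at 1.64% and 2.62%. There were 28.0 Gal UMIs per 100 Nppc UMIs in them at day 21 and 49.6 at day 7, against 21.8 and 40.8 in satellite-like cells of the same libraries. This measure varied within and between the other classes. At day 21 it rested on 26 Gal and 189 Nppc UMIs in lymphatic cluster 2 and on 36 and 58 UMIs in lymphatic cluster 18, and it was 94.8 in fibroblast-like cells. In mature muscle-like cells of day 7 it was 297, where Gal was at 6.12% of the satellite-like level. At day 7 the 101 lymphatic endothelial-like cells with an Nppc UMI also held a Pax7 UMI in 50.5% of cases, against 2.41% of the other cells of that class. At day 21 the figures were 47.1% of 68 cells and 1.35% of the rest. Of the 87 lymphatic endothelial-like cells with a Gal UMI at day 7, 43.7% held a Pax7 UMI, against 3.83% of the rest. Whether satellite cell RNA gave these peptide counts was not tested.

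A separate source of Gal appeared in the uninjured library. Dendritic-like cells of day 0, a cluster led by Ccl22, Ccl17 and Ccr7, held 190 of the 194 Gal UMIs of that library, at 274 CPM (236 to 316) and in 18 of 55 cells (32.7%). None of these 18 cells held a Pax7 or Chodl UMI, and no cell held more than 33 of the UMIs. The 42 dendritic-like cells of Vegfc CRE day 7 held no Gal UMI, which allows up to 11.4 CPM by the limit of 3 counts used here for a count of 0.

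In Vegfc CRE day 7, 138 of the 200 Nppc UMIs were in fibroblast-like cells, at 3.75 CPM (3.15 to 4.44) and in 74 of 1483 cells. None of these 74 cells held a Pax7 UMI, and 2 held a Chodl UMI. The fibroblast-like cells of Prox1 eGFP day 21 held 16.6 CPM of Nppc in 24 of 313 cells, in a library where satellite-like cells held 1127 CPM.

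Among the receptors, Ednra (ENSMUSG00000031616, mm10 chr8:77663031-77724464, minus strand), the receptor of contractile cells, was highest in mural-like cells, the pericytes and smooth muscle of vessel walls. Its level there was 173 CPM in Vegfc CRE day 7 (159 to 187, 82.1% of 229 cells) and 141 CPM in Prox1 eGFP day 21 (117 to 169, 71.6% of 81 cells), and these intervals overlap. Fibroblast-like cells followed at 22.7 CPM in Vegfc CRE and 32.0 CPM in Prox1 eGFP day 21, and tenocyte-like cells, the cells of tendon matrix, at 9.08 and 14.6 CPM. The lymphatic endothelial-like class had 1 UMI at day 21 and none at day 7, and a count of 0 there allows up to 0.136 CPM, taken as 3 counts. Prox1 eGFP day 7 held no mural-like or fibroblast-like class of 30 cells, so its Ednra could not be compared there. In Vegfc CRE blood vascular endothelial-like cells all 54 Ednra UMIs lay in cluster 17, led by Aqp7 and Tcf15, at 29.4 CPM.

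In satellite-like cells Ednra was low, at 3.38 CPM at day 21 (87 UMIs in 76 cells) and 0.912 CPM at day 7 (29 UMIs in 26 cells), a ratio of 3.70 (2.41 to 5.85). The 9 fibroblast markers summed to 625 CPM in these cells at day 21, with Pdgfra and Dpp4 at 0, and to 835 CPM at day 7, with none at 0. The 9 mural markers summed to 636 and 678 CPM, with Higd1b at 0 on both days. The satellite-like cells with an Ednra UMI had 655 CPM of fibroblast markers at day 21 against 624 CPM in those without, and 326 against 644 CPM of mural markers. At day 7 those with an Ednra UMI had 580 against 837 CPM of fibroblast markers and 669 against 678 CPM of mural markers. The 8 tenocyte markers summed to 23.3 CPM at day 21, with Chad at 0, and to 14.8 CPM at day 7, with Fmod, Kera and Chad at 0. The part of these other cell types in the Ednra ratio was not tested.

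Ednrb (ENSMUSG00000022122, mm10 chr14:103814625-103844402, minus strand), the receptor that binds endothelin 3 with high affinity, was held by blood and lymphatic endothelial-like, macrophage-like, mural-like and Schwann-like cells. The Schwann-like cells of Vegfc CRE day 7 were at 66.2 CPM (42.8 to 97.7, 20% of 60 cells). The highest class level was 341 CPM in blood vascular endothelial-like cells of Prox1 eGFP day 7 (297 to 390, 24 of 33 cells). It was followed by macrophage-like cells, at 151 CPM in Vegfc CRE day 7 (interval 145 to 158) and 220 CPM in Prox1 eGFP day 21 (interval 187 to 259). The Vegfc CRE value depended on which cells were kept in the class, at 245 CPM with called doublets kept and 230 CPM under a stricter cell filter, and was 112 CPM at a clustering resolution of 0.5. Blood vascular endothelial-like cells of day 21 were at 141 CPM (121 to 163) and lymphatic endothelial-like cells of day 7 at 133 CPM (128 to 137), which differ by less than their intervals. Satellite-like cells, where Edn3 was read, held 8 Ednrb UMIs at day 21 and 12 at day 7, or 0.311 and 0.378 CPM, in 0.171% and 0.328% of cells.

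The macrophage-like clusters differed in Ednrb. Cluster 12, led by Cd209f, Cd163 and Folr2, held 604 CPM in Vegfc CRE day 7 (575 to 635, 68.1% of 335 cells) and 395 CPM in Prox1 eGFP day 21 (332 to 466, 68.6% of 35 cells). Cluster 5, the other macrophage-like cluster, was at 49.3 CPM in Vegfc CRE (17.0% of 1132 cells). In that library cluster 12 held 1572 Ednrb UMIs in 228 cells and cluster 5 held 571 UMIs in 192 cells. The higher level was thus in the cluster led by Cd163 and Folr2, genes of resident macrophages.

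Lymphatic endothelial-like cells also divided by cluster. Cluster 2, led by Clca3a1, held 122 CPM of Ednrb at day 21 (114 to 129, 42.2% of 895 cells) and 254 CPM at day 7 (244 to 264, 72.6% of 503 cells), a ratio of 0.478 (0.445 to 0.514). Ednrb was thus at least 2-fold lower in cluster 2 on the CPM scale, where 7.29% of 12608 genes were. Its log2 ratio was -1.06, against -0.19 for the median gene of this cluster. TMM scaling was not run for these cells, so whether Ednrb stays past 2-fold under it was not tested. In cluster 4, led by Ccl21a, Lyve1 and Reln, the level was 34.8 CPM at day 21 and 38.9 CPM at day 7, a ratio of 0.894 (0.754 to 1.06). Over the whole class the ratio was 0.581 (0.545 to 0.620), with 77.1 and 133 CPM.

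In blood vascular endothelial-like cells Ednrb was at 141 CPM at day 21 and 341 CPM at day 7 in Prox1 eGFP, a ratio of 0.413 (0.337 to 0.506), and at least 2-fold lower where 12.7% of 9885 genes were. It was at 55.7 CPM in Vegfc CRE day 7 against the same 341 CPM, a ratio of 0.163 (0.139 to 0.193), where 14.8% of 12140 genes were at least 2-fold lower. Both comparisons share the 33 cells of Prox1 eGFP day 7, and 29 of those were in cluster 8, led by Vwf and Ackr1. Within cluster 8 the levels were 42.7 CPM in Vegfc CRE day 7, 150 CPM at day 21 and 361 CPM at day 7. A Prox1 transcript was detected in 1.15% of all Vegfc CRE day 7 cells and in 96.8% of all Prox1 eGFP day 7 cells. Genotype and this difference in the cells collected cannot be told apart for Ednrb either.

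**Figure D5:**
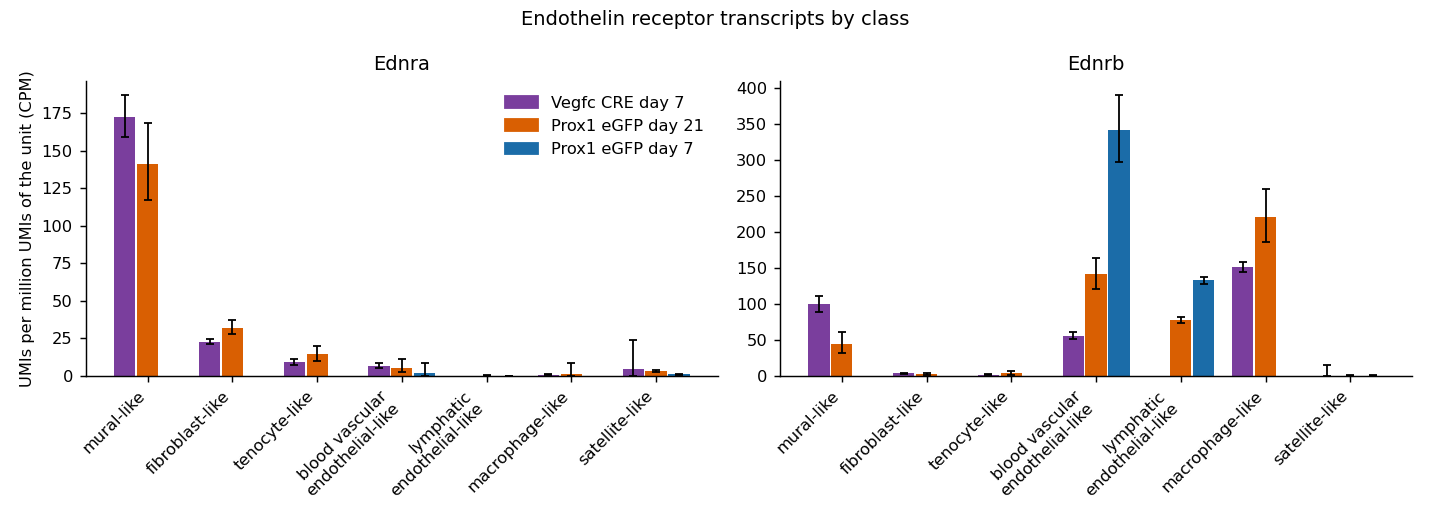
Level of Ednra and Ednrb (CPM, from 0) by class, with Vegfc CRE day 7 in purple, Prox1 eGFP day 21 in orange and Prox1 eGFP day 7 in blue, and bars of the exact Poisson 95% interval. A missing bar is a class with fewer than 30 cells in that library or a level near 0. Ednra is highest in mural-like cells, Ednrb in blood vascular endothelial-like and macrophage-like cells, and satellite-like cells are near 0 for both.

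Npr2 (ENSMUSG00000028469, mm10 chr4:43631935-43651244, plus strand), the receptor that signals for C-type natriuretic peptide, was spread over many classes at low level. In the lymphatic endothelial-like class it was at 16.7 CPM at day 21 and 19.8 CPM at day 7. The blood vascular endothelial-like class had 15.8 CPM in Vegfc CRE day 7, 16.6 CPM in Prox1 eGFP day 21 and 22.2 CPM in Prox1 eGFP day 7. Fibroblast-like cells were at 7.07 CPM in Vegfc CRE and at 16.5 CPM in Prox1 eGFP day 21. Satellite-like cells held 11.8 CPM at day 21 (10.5 to 13.2) and 15.2 CPM at day 7 (13.8 to 16.6), a ratio of 0.779 (0.672 to 0.901). The Vegfc CRE fibroblast-like cells lay below the others. The interval of satellite-like cells of day 21 lay below those of satellite-like cells of day 7, lymphatic endothelial-like cells of both days and fibroblast-like cells of day 21. Lymphatic endothelial-like cells of day 7 lay above satellite-like cells of day 7. The other neighbours mostly have overlapping intervals, so no order among those is read. Mural-like cells had 1 UMI each in Vegfc CRE and Prox1 eGFP day 21, and macrophage-like cells had 4 UMIs in 1467 Vegfc CRE cells and none in 59 cells of day 21.

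Satellite-like cells thus held UMIs of Nppc and of its signalling receptor in the same class. An Npr2 UMI was found in 9.10% of Nppc-positive and 6.60% of Nppc-negative satellite-like cells at day 21, and in 11.9% and 11.4% at day 7. After thinning, the shares were 2.91% and 2.49% at day 21 and 3.44% and 2.69% at day 7, near the level of a single UMI, so no difference is read from them.

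Npr3 (ENSMUSG00000022206, mm10 chr15:11839896-11907287, minus strand), the clearance receptor, was low in every class. Satellite-like cells of day 21 were at 8.04 CPM (6.98 to 9.21, 207 UMIs) and those of day 7 at 3.96 CPM (3.30 to 4.72, 126 UMIs), a ratio of 2.03 (1.62 to 2.55). Satellite-like cells held 80.5% of the Npr3 UMIs of the library at day 21 and 78.3% at day 7. Mature muscle-like cells were at 7.76 and 4.20 CPM, within the intervals of satellite-like cells of the same day. In Vegfc CRE day 7 the highest level was 6.21 CPM in epithelial-like cells (14 UMIs in 10 of 108 cells), while fibroblast-like cells were at 4.46 CPM and blood vascular endothelial-like cells at 4.11 CPM. The ratio of Npr3 within clusters was 1.80 (1.24 to 2.71) in cluster 0, 1.77 (1.00 to 2.96) in cluster 1 and 8.70 (2.87 to 35.4) in cluster 14, the last from 18 UMIs at day 21 and 4 at day 7.

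Galr2 (ENSMUSG00000020793, mm10 chr11:116280939-116283938, plus strand), a galanin receptor that couples to calcium release, was the most sparsely counted. Its level in tenocyte-like cells was 2.76 CPM for Vegfc CRE day 7 (1.84 to 3.99, 28 UMIs in 24 of 407 cells) and 8.89 CPM for Prox1 eGFP day 21 (5.57 to 13.5, 22 UMIs in 19 of 95 cells). Fibroblast-like cells held 0.952 CPM in Vegfc CRE and 3.77 CPM in Prox1 eGFP day 21. At a clustering resolution of 2 the tenocyte-like levels were 5.98 CPM in Vegfc CRE and 22.2 CPM in Prox1 eGFP day 21, and at 0.5 the highest class in Vegfc CRE was fibroblast-like, at 1.94 CPM. After thinning to 2000 UMIs none of the 95 tenocyte-like cells of day 21 kept a UMI, so the shares without thinning also carry the depth of these cells. Satellite-like cells, where Gal was read, held 5 Galr2 UMIs at day 21 and 8 at day 7. In blood vascular endothelial-like cells of Vegfc CRE there were none in 679 cells.

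The day 0 library held 7 UMIs of Ednra, 6 each of Ednrb and Npr2, 1 of Npr3 and none of Galr2 in 689 cells. It held 26 mural-like, 15 macrophage-like, 7 blood vascular endothelial-like, 2 lymphatic endothelial-like and 2 fibroblast-like cells, too few of these classes to give receptor levels before injury.

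The wider pathway list, which adds 31 further genes for the other ligands, receptors, converting enzymes, cyclic GMP enzymes and peptide processing, had 20 members with at least 10 UMIs in satellite-like cells over both days. Of these, 10 were at least 2-fold lower at day 21, where 11.4% of all genes were, 1 was higher, where 4.48% were, and 9 were within 2-fold, with a median log2 ratio of -0.97 against -0.23 for all genes. A further 9 had fewer than 10 UMIs and 2 were not in the shared gene list. The 10 lower genes were mostly at very low level, which limits the ratios. At a minimum of 50 UMIs 905 of 11977 genes were at least 2-fold lower, against 1604 of 14097 at the minimum of 10. Sparsely counted genes thus passed 2-fold more often than the share over all genes. The list was also chosen with earlier results of these data known, so its counts are not read against the background. Ece2, an endothelin-converting enzyme, was at 2.72 against 10.98 CPM, Scg2, a granin of secretory granules, at 3.34 against 9.31 CPM, and Pde5a, which degrades cyclic GMP, at 5.40 against 11.4 CPM. Edn1, Mme, Corin, Prkg1, Prkg2, Cpe and Scg5 were under 2 CPM on either day, and Prkg1, with 6 and 15 UMIs, had an interval of 0.157 to 1.35. The gene that was higher was Pcsk2, a prohormone convertase, at 2.64 against 1.26 CPM.

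The enzymes needed to finish the peptides were unevenly held by satellite-like cells. Furin, a convertase of precursors, was at 29.3 CPM at day 21 and 47.4 CPM at day 7, and Pam, which amidates peptides such as galanin, at 106 and 111 CPM. Ece1, the main endothelin-converting enzyme, was at 29.9 CPM at day 21 and 32.5 CPM at day 7 in satellite-like cells, while the lymphatic endothelial-like class had 497 CPM at day 21 and 506 CPM at day 7. Cpe, which trims peptide ends, was at 0.311 and 0.818 CPM, with 8 and 26 UMIs, and Pcsk1 was not detected in satellite-like cells.

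Other genes of the list were led by vascular and stromal classes. Edn1, the endothelin of endothelium, reached 382 CPM in blood vascular endothelial-like cells of Prox1 eGFP day 7, as did Ece1 at 916, Cpe at 606, Pam at 490 and Npr1, the receptor for atrial natriuretic peptide, at 132 CPM. Mural-like cells of day 21 were highest for Pde3a at 190 and Pde5a at 149 CPM, both phosphodiesterases. Pcsk5 was highest in fibroblast-like cells of Vegfc CRE at 200.6 CPM, Pcsk6 in lymphatic endothelial-like cells of day 21 at 132 CPM, and Furin in neutrophil-like cells of Vegfc CRE at 113 CPM.

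The genes whose levels ran most like those of each member were found by Pearson's r of log2(CPM + 1) over 29 classes of cells in the libraries, among 13408 genes. These units share libraries and depth, the 36 Vegfc CRE cells are among them, and r is given as a description. For Edn3 they were Fgfr4 (r = 0.987), Myf5, Pax7, Cdh15 and Fndc3c1, for Nppc they were Pax7 (0.955), Chrdl2, Myf5, Fgfr4 and Edn3, and for Gal they were Defb25 (0.860), Pde1c, Ntn5, Hs6st2 and Cdh15. For Ednra they were Smim1 (0.904), Cacna1c, Galnt16, Mark1 and Avpr1a, and for Ednrb Stard8 (0.905), Ehd4, Tppp, Vamp3 and Cd93. For Npr2 they were Dnm3 (0.871), Prkd1, Bmp4, Prpf40b and Gm15222. For the sparse Galr2 and Npr3 they were Wif1 (0.966), Epyc, Aqp2, Hand2 and Gm765, and Tacc2 (0.798), Ndrg2, Rab40b, Pacsin3 and Klf15.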

How the data were processed

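Droplet single-cell libraries were made with a 3′ kit, per the labels' protocols, and the submitters' processing notes name Cell Ranger 5.0.1 and the mm10 build. The authors' deposited matrices hold raw UMI counts per gene and barcode, with no normalization and no cell annotation used here. The 27040 gene identifiers listed in all 4 libraries were kept, and the 8 genes were found by identifier. Cells needed at least 500 genes, 1000 UMIs and under 15% mitochondrial UMIs. Scrublet in scanpy 1.11.5 marked 87 doublets in Vegfc CRE day 7, and 1, 0 and 87 in Prox1 eGFP days 0, 7 and 21, which were removed; at day 7 the caller had not worked, so doublets remain. Cells were clustered with Leiden at resolution 1 on 2000 variable genes, 30 components and 15 neighbours, without the members and pathway genes. No library was replicated, so no test was run. TMM used edgeR 4.0.16. Ratios carry exact conditional binomial intervals at 95%. The 2-fold rule and the ratio interval were checked on simulated counts. Thinning drew 2000 UMIs from each cell. Members, lists and markers were chosen with earlier results of these data known. Genes were named by rule: the members, pathway genes at least 2-fold apart or reaching 100 CPM in a class, and the 5 genes most like each member. Genes overlapping on the opposite strand lie at Ednra, Npr2 and Npr3. Alternatives were other resolutions, doublet, cell and gene choices, per-cell means, TMM, marker-defined satellite cells and other minimum counts.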

Additional observations from a re-analysis of the deposited data

Results flagged for a closer look

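The ratio of day 21 to day 7 ran in opposite directions in different satellite-like clusters of Prox1 eGFP for Gal and Nppc, and the difference between the clusters was not tested. The level of Gal was higher at day 21 in the Myog-led cluster 14 and lower in clusters 0 and 1. Its ratio in cluster 14 was 4.17 times that in cluster 0 and 2.28 times that in cluster 1. In cluster 14 Gal had 329 UMIs in 148 cells at day 21 and 318 UMIs in 208 cells at day 7. The share of these cells with a Gal UMI was smaller at day 21, against the direction of the level. Nppc was higher at day 21 in clusters 1 and 14 and lower in cluster 0, and its ratio was 1.34 times that of cluster 0 in cluster 1 and 1.93 times in cluster 14. In cluster 0 its log2 ratio of -0.14 lay above the -0.19 of the median gene, so the lower level there holds on the CPM scale only. In cluster 14 the share of cells with an Nppc UMI was also smaller at day 21. Each rests on 1 library per day.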

How the results depend on the processing

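No paired analysis was possible because each group had 1 library, and leaving out a replicate was not possible for the same reason. Edn3 and Gal were lower at day 21 under every alternative run, with log2 ratios between -1.29 and -0.81 for Edn3 and between -1.42 and -0.70 for Gal. Nppc was lower under each except leaving out cluster 1, chosen after seeing the data, where its log2 ratio reversed to 0.22; the other ratios there were -0.81 and -0.70. Without cluster 0 the ratios were -1.29 for Edn3, -0.96 for Gal and -0.57 for Nppc, and 998 genes were higher. Without cluster 14 they were -1.40 for Gal and -0.45 for Nppc. TMM gave -0.86, -1.06 and -0.16 in the same order of genes. Per-cell means gave -1.42 for Gal and -0.47 for Nppc, resolution 0.5 gave -1.23 and -0.33, and the stricter cell filter gave -1.23 and -0.33. Removing the highest doublet scores, also chosen after seeing the data, gave -0.41 for Nppc. A minimum of 50 UMIs left 905 genes lower and 390 higher. The causes of these shifts were not tested, except that a minimum of 50 UMIs tests fewer genes.

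For receptors, Ednrb in its highest class in Vegfc CRE day 7, macrophage-like cells, was 112 CPM at resolution 0.5, 245 with doublets kept, 230 under the stricter filter, 176 with the members among the variable genes and 144 without the highest doublet scores. At day 21 it was 177 CPM at resolution 0.5 and 293 by per-cell means. Galr2 was 1.94 CPM in fibroblast-like cells at resolution 0.5 and 5.98 CPM at resolution 2 in Vegfc CRE, and 22.2 CPM at day 21 at resolution 2. Npr2 at day 21 was highest in fibroblast-like or blood vascular endothelial-like cells in place of lymphatic ones, at 16.6, 17.7, 16.7, 17.5, 16.6 and 20.7 CPM. Npr3 was highest in satellite-like cells at day 7 at 3.99 CPM and in mature muscle-like cells at day 21 at 8.77 CPM under the stricter filter, and was 9.73 CPM at day 7 by per-cell means. Ednra in Vegfc CRE was 216 CPM by per-cell means. In all, 64 of 84 receptor values stayed within the counting interval with the same highest class, and 18 of 36 peptide ratios stayed within the counting interval. Galr2 rested on 35 UMIs or fewer in every class.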

Other observations

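The smaller satellite-like clusters also held the peptide genes. Cluster 26, led by Thrsp, Lbx1 and Six2, had 42 cells at day 7 with Edn3 at 337 CPM, Gal at 666 CPM and Nppc at 1612 CPM. Cluster 25, led by the interferon-induced genes Ifit1 and Ifit3, had 38 cells at day 7 with Edn3 at 256 CPM, Gal at 685 CPM and Nppc at 1827 CPM. The dividing cells of cluster 20 at day 21, led by Aard and Esco2, were lower, with Edn3 at 81.1 CPM, Gal at 89.1 CPM and Nppc at 398 CPM in 104 cells.

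Ednrb was also found in a cluster that the marker lists did not name. Cluster 23, led by Cldn11, Zic2 and Sbspon, held it at 263 CPM (218 to 314) in 37.1% of 70 cells at day 21. Edn1, the endothelin of endothelium, was at 274 CPM at day 21 and 382 CPM at day 7 in blood vascular endothelial-like cells of Prox1 eGFP, and at 78.8 CPM in those of Vegfc CRE day 7. Its level in lymphatic endothelial-like cells was 54.2 CPM at day 21 and 75.04 CPM at day 7.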
